A study of Mus musculus with 2 samples.

Results

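The hedgehog genes of the uterine epithelium were read as 9 genes: the ligand Ihh, the receptor Ptch1, the co-receptor Gas1, the decoy receptor Hhip, the signal transducer Smo, the transcription factors Gli1, Gli2 and Gli3, and the nuclear receptor Nr2f2. They were taken by gene symbol from the array's platform annotation. All 9 were on the array, among 12393 genes, through 17 of 20380 probe sets that are paired with 1 gene. Epithelium was collected from mice on day 4 of pregnancy. There was 1 array of Stat3 knockout epithelium and 1 array of control epithelium. Each was hybridised with pooled RNA, for which the design text gives n = 3 without saying whether these were animals or preparations. Control mice carried the floxed Stat3 allele per the sample titles. The knockout sample carries the same title and is set apart by its genotype and its description. The sources used here name no Cre line, age or strain. Both tissues were dissociated with trypsin, and no hormone or other agent is named for either.

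In the mouse uterus, Indian hedgehog is made by the epithelium under progesterone before implantation and acts on the stroma beneath it. The ligand binds patched, which releases smoothened, and the GLI factors then carry the signal to the nucleus. Ptch1, Gli1 and Hhip are themselves switched on by the pathway, and the stromal nuclear receptor COUP-TFII, encoded by Nr2f2, lies downstream of the ligand. STAT3, the factor deleted here, carries signals of leukaemia inhibitory factor to the nucleus of the same epithelium.

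Values are MAS5 signals, the background-corrected brightness of a probe set on a linear scale. A signal under a floor of 14.0, the 40th percentile of all signals, was treated as not measured. Ratios are knockout over control, and a gene was counted as different when it was at least 2-fold higher or lower. With 1 array per group there is no replicate check, so no p-value, SD or n of a group accompanies any value, and the number of arrays limits the precision. The only error that could be measured was the disagreement between probe sets of 1 gene, an SD of 0.31 in log2 ratio over 2853 genes. It covers neither animals nor arrays.

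The trimmed mean signal, which leaves out the lowest and the highest 2% of probe sets, was 150.1 on both arrays. As a check of the labels, Stat3 itself was lower in the knockout, with signals of 186 in the knockout and 582 in the control for probe set 1460700_at (log2 ratio -1.64). A further probe set, 1426587_a_at, had 160.0 in the knockout and 430.0 in the control (log2 ratio -1.43), and the last lay under the floor on both arrays. The position of these probes relative to the floxed exons is not known here. Epithelial markers were bright on both arrays, with signals of 4289 in the knockout and 4220 in the control for Krt8, a keratin of simple epithelium, and of 2708 in the knockout and 2275 in the control for Cdh1, which encodes E-cadherin.

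Among the hedgehog genes, the co-receptor Gas1 was at least 2-fold higher in Stat3 knockout epithelium. Ptch1 and Nr2f2 were higher by less than that, the ligand Ihh differed little, and Smo was lower. The GLI factors and Hhip were under the floor on both arrays. Of the 9 genes, 5 were measured, each over the floor on both arrays, and the other 4 were under it on both. At the 2-fold limit, 1 of the 5 was higher and 0 were lower. Over all 8304 measured genes, 7.37% were higher and 9.92% lower by that limit. At 1.5-fold, 3 of the 5 were higher and 1 was lower, against 19.4% and 18.6% of all measured genes. The median log2 ratio of the 5 was 0.71, and that of all measured genes was 0.05. These genes were chosen with earlier results of the same arrays known, so their shares describe them and carry no test.

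**Figure D1:**
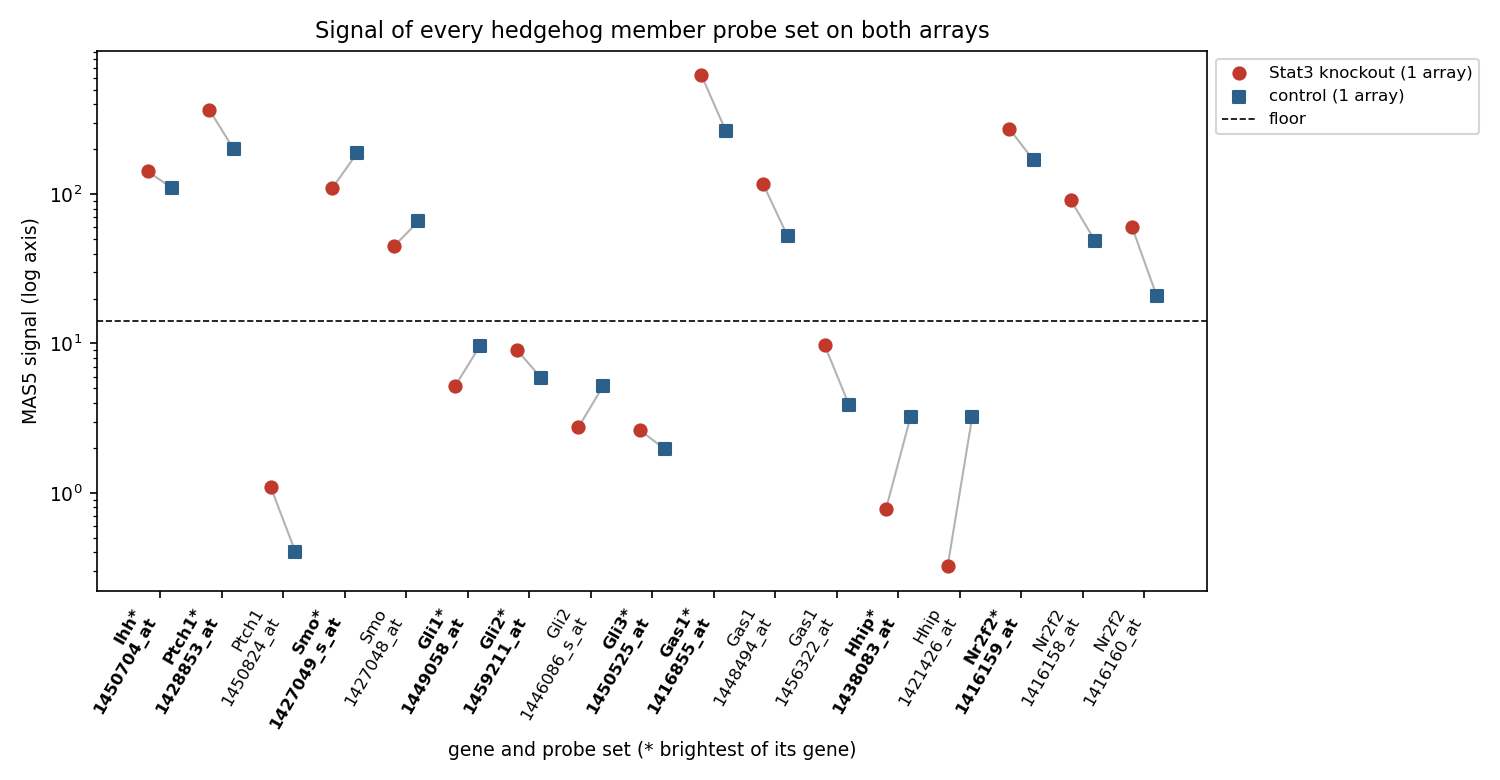
MAS5 signal (log axis) of the 17 probe sets of the hedgehog genes in Stat3 knockout (red circles, left) and control (blue squares, right) epithelium, 1 array each. The dashed line is the floor of 14.0, and an asterisk marks the brightest probe set of a gene. The probe sets of Gas1 and Nr2f2 over the floor are all higher in the knockout, those of Smo are lower, and those of Gli1, Gli2, Gli3 and Hhip lie under the line on both arrays.

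Ihh (gene ID 16147), read by 1 probe set, 1450704_at, had a signal of 142 in the knockout and 109 in the control. This was 1.30-fold higher, with a log2 ratio of 0.38. The ligand was therefore measured on both arrays and differed by much less than 2-fold, and 28.8% of all measured genes had a higher ratio. No further probe set exists to check it, and its log2 ratio was close in size to the spread between probe sets of 1 gene.

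The remaining hedgehog ligands and release factors gave little signal. Shh, which encodes sonic hedgehog, had signals of 3.76 in the knockout and 2.65 in the control. Dhh, which encodes desert hedgehog, had 2.26 in the knockout and 2.00 in the control. Hhat, whose enzyme attaches the lipid that hedgehog proteins need, had signals of 10.0 in the knockout and 3.73 in the control. Ihh was thus the one hedgehog ligand gene over the floor on these arrays. Scube1, of a family that includes a carrier of secreted hedgehog, was over the floor in the knockout only (15.9, against 2.74 in the control), or at least 1.13-fold higher.

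Ptch1 (gene ID 19206) encodes the receptor of the ligand. Its probe set 1428853_at had a signal of 368 in the knockout and 199.7 in the control, 1.84-fold higher (log2 ratio 0.88). It thus stayed short of the 2-fold limit, and 9.79% of all measured genes had a higher ratio. The other probe set, 1450824_at, was at 1.09 in the knockout and 0.403 in the control, both far under the floor, so the Ptch1 ratio rests on a single probe set.

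Smo (gene ID 319757), which encodes the membrane protein that patched holds in check, was the only measured gene of the 5 with a lower signal in the knockout. Probe set 1427049_s_at had 109.5 in the knockout and 188 in the control, 1.71-fold lower (log2 ratio -0.78). Its name marks it as one that can read several transcripts. Probe set 1427048_at had 44.7 in the knockout and 65.8 in the control, 1.47-fold lower (log2 ratio -0.56). Both probe sets had the same direction, they differed by 0.22 in log2 ratio, and neither reached 2-fold.

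Gas1 (gene ID 14451) encodes a membrane-anchored protein that binds hedgehog ligands beside patched. Probe set 1416855_at had a signal of 625 in the knockout and 263 in the control, 2.38-fold higher (log2 ratio 1.25). Probe set 1448494_at had 118 in the knockout and 52.2 in the control, 2.25-fold higher (log2 ratio 1.17). Both passed the limit and differed by 0.08, less than the usual spread between probe sets of a gene. The third, 1456322_at, had 9.77 in the knockout and 3.87 in the control, under the floor on both. Among all measured genes, 4.03% had a higher ratio than Gas1.

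Hhip, which encodes a membrane protein that captures hedgehog ligands, gave no measurable signal. Its probe sets had 0.783 and 0.321 in the knockout, against 3.24 and 3.22 in the control.

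The GLI genes were also under the floor. Gli1, the activator that the pathway induces, had a signal of 5.21 in the knockout and 9.64 in the control. Gli2, the main activator in many mouse tissues, had 9.08 in the knockout and 5.84 in the control for its brighter probe set, and 2.74 in the knockout and 5.18 in the control for the other, which leaned the opposite way. Gli3, which acts largely as a repressor, had 2.62 in the knockout and 1.97 in the control. None of these values supports a ratio, and a signal under the floor does not show that the transcript was absent. Of all 12393 genes, 33.0% were likewise under the floor on both arrays.

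Nr2f2 (gene ID 11819) was higher in the knockout in all 3 of its probe sets. Probe set 1416159_at, the brightest, had 274 in the knockout and 168 in the control, 1.63-fold higher (log2 ratio 0.71). Probe set 1416158_at had 91.6 in the knockout and 48.4 in the control, 1.89-fold higher (0.92). Probe set 1416160_at had 59.9 in the knockout and 20.7 in the control, 2.89-fold higher (1.53). The direction was shared, but the size was not: the log2 ratios spanned 0.82, and the dimmest of the probe sets alone passed the limit. The related receptor gene Nr2f1, which encodes COUP-TFI, was under the floor (0.500 in the knockout and 0.274 in the control). Nr2f6 had signals of 367 in the knockout and 244 in the control (log2 ratio 0.59), though a dimmer probe set had 208 in the knockout and 199.3 in the control (0.06).

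**Figure D2:**
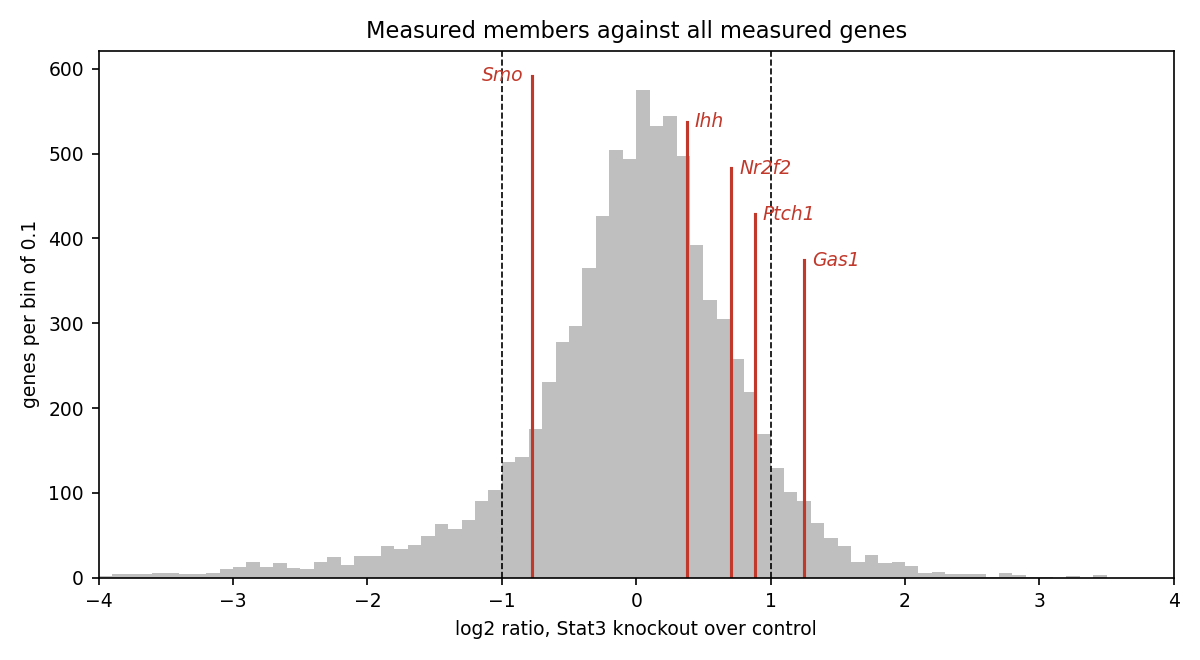
Number of genes (y axis, bins of 0.1) by log2 ratio of Stat3 knockout over control (x axis) for all 8304 measured genes, of which 36 lie outside the plotted range. Red lines mark the 5 measured hedgehog genes and dashed lines the 2-fold limits: Gas1 at 1.25 lies past the upper limit, Ptch1 at 0.88, Nr2f2 at 0.71 and Ihh at 0.38 lie between 0 and that limit, and Smo at -0.78 lies short of the lower one.

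The sequence upstream of the ligand, the receptor and the co-receptor is printed to set these ratios beside the DNA in front of each start, since Ptch1 and Gas1 had the highest ratios and Ihh is the ligand. The 250 bases before the RefSeq start are from the GRCm38.p6 build, 5′ to 3′ on the strand of the gene, the minus strand in each case. They lie at chr1:74951673-74951922 for Ihh, chr13:63565736-63565985 for Ptch1 and chr13:60177536-60177785 for Gas1. Capitals mark CCACCC, the core of the GLI motif, or its reverse complement GGGTGG.
Ihh: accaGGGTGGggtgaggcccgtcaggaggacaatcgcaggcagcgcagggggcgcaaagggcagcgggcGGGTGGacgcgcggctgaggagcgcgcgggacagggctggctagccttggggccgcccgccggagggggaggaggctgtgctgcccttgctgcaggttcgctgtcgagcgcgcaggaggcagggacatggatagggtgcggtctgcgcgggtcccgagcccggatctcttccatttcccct
Ptch1: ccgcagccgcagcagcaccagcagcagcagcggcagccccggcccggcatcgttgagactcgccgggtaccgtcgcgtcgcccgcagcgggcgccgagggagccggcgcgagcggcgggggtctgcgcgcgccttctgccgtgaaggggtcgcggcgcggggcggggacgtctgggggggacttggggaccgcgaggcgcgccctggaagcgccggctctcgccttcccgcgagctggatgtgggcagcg
Gas1: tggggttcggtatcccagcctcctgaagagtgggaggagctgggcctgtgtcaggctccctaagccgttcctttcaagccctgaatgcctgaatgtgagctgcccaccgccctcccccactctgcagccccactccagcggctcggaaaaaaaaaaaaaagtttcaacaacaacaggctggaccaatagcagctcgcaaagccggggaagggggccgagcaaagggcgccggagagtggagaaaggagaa
Such windows were found for 8 of the 9 genes, Gli1 being the one without an entry. On both strands, the 9-letter GLI motif GACCACCCA was in 0 of the 8 windows and in 0.225% of 32851 windows of all genes. The shorter CCACCC, which lies within it, was in 5 of the 8 windows, those of Ihh, Smo, Gli2, Gli3 and Hhip, and in 28.1% of all. In the Ihh window it begins at positions -246 and -181, counted back from the start, and the windows of Ptch1 and Gas1 hold none. The STAT motif TTCNNNGAA was in 0 of the 8 windows and in 7.02% of all. The 6-letter steroid receptor element TGTTCT and nuclear receptor element AGGTCA were each in 0 of the 8, against 16.1% and 14.0% of all. The 5 windows with CCACCC were rich in G and C, from 67.2% in Gli2 to 76.0% in Hhip, with Ihh at 72.0%. That of Ptch1, without a match, had 78.4%, and the median over all windows was 52.4%. The share of 28.1% was not matched for G and C content. These matches describe the letters of short windows and say nothing of binding.

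The wider pathway differed little between the arrays. Of 40 further genes for ligand release, co-receptors, cilium transport and GLI processing, 27 were on the array and 21 were measured. At the 2-fold limit 1 was higher and 0 were lower, against 7.37% and 9.92% of all measured genes. Of the 21 ratios, 18 were above 0, against 53.4% of all measured genes. Scube1, Boc and the ligase gene Btrc were among the 18 but over the floor in the knockout only. Their direction was thus fixed by the floor, and Boc had a bound of 0.006. The median log2 ratio of the 21 was 0.18.

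Among the co-receptors, Gpc3, which encodes a glypican that competes with patched for the ligand, had signals of 35.9 in the knockout and 16.9 in the control, 2.13-fold higher. It has a single probe set, and its control signal was near the floor. Under a scaling fitted to the mean signal, Gpc3 had a log2 ratio of 0.97, and with the floor value added to both signals 0.69. Neither reached the limit. Lrp2, which encodes the endocytic receptor megalin, was bright on both arrays, with 2565 in the knockout and 1481 in the control (log2 ratio 0.79). A dimmer Lrp2 probe set had 1584 in the knockout and 903 in the control (log2 ratio 0.81). Boc and Cdon encode the co-receptors that act in parallel with Gas1. Boc stood at the floor in the knockout (14.1, against 8.36 in the control), and Cdon was under it on both arrays (1.69 in the knockout and 4.32 in the control). Gas1 was therefore the only one of these 3 co-receptor genes over the floor on both arrays.

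In the cilium and transduction list, 0 of 7 measured genes passed the limit. Sufu, which encodes the protein that restrains the GLI factors, had 76.8 in the knockout and 53.1 in the control (log2 ratio 0.53). Ift172, an intraflagellar transport gene, had 293 in the knockout and 171 in the control (0.77). Among the kinases and ubiquitin ligases that process GLI proteins, 0 of 9 passed the limit. Spop, whose ligase marks GLI proteins for breakdown, had 566 in the knockout and 498 in the control. Csnk1a1, a casein kinase gene, had 1876 in the knockout and 1678 in the control. Cul3, the scaffold of the SPOP ligase, had 596 in the knockout and 621 in the control. A dimmer Spop probe set had 234 in the knockout and 149 in the control (log2 ratio 0.65). Gsk3b, a kinase gene outside the naming rule, had the highest ratio of this list, with 156 in the knockout and 91.6 in the control (0.76). All measured genes of these lists thus lay within 2-fold.

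Genes that hedgehog is known to induce in other tissues differed in both directions. Of 18 genes, 12 were measured, of which 2 were higher and 5 lower past the limit, against 7.37% and 9.92% of all measured genes. The median log2 ratio of the 12 was -0.71, and that of all measured genes was 0.05. Mycn, a MYC family gene, had 27.9 in the knockout and 246 in the control, 8.82-fold lower, and Ccnd1, which encodes cyclin D1, had 115 in the knockout and 530.3 in the control, 4.60-fold lower. Ccne1 (cyclin E1), Tiam1 (a Rac exchange factor) and Jag1 (a Notch ligand) were under the floor in the knockout and at least 3.99-fold, 4.53-fold and 2.23-fold lower. Ccnd2, which encodes cyclin D2, went the other way, with 496 in the knockout and 149 in the control, 3.34-fold higher. All 7 Ccnd2 probe sets were higher in the knockout. Bmp4, named because it completes the count of genes past the limit, was at least 2.20-fold higher (30.9 in the knockout, under the floor in the control). Several genes of this list also serve cell division. The proliferation marker Mki67, a gene outside the lists, had a signal of 19.1 in the knockout and 742 in the control. The part of cell division in the list's median was not tested.

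**Figure D3:**
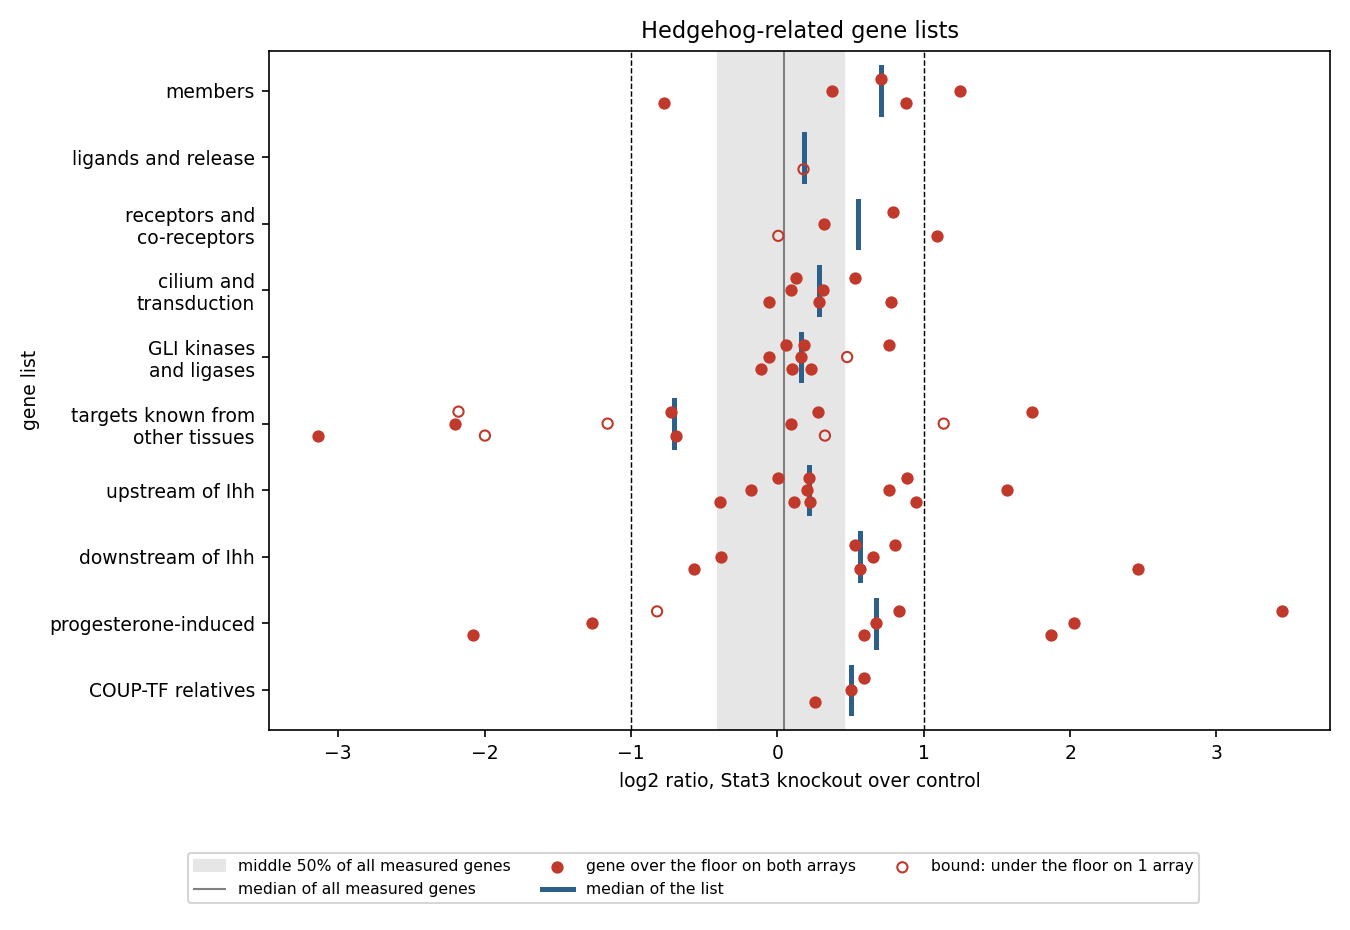
Log2 ratio of Stat3 knockout over control (x axis) for each measured gene of 10 hedgehog-related lists (y axis). Open circles are bounds, blue bars are list medians, the grey band spans the lower to the upper quartile of all measured genes, and dashed lines mark 2-fold. The hedgehog genes have a median of 0.71 and the targets known from other tissues one of -0.71, while the kinases and ligases that process GLI proteins range from -0.11 to 0.76.

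Genes placed upstream of Ihh in the mouse uterine epithelium were mostly a little higher. Of 12 genes, 11 were measured. Past the limit 1 was higher and 0 were lower, against 7.37% and 9.92% of all measured genes. The median log2 ratio of the 11 was 0.21, within the quartiles of all measured genes (-0.40 and 0.46). Of the 11 ratios, 9 were above 0, some of them barely, against 53.4% of all measured genes. Egfr, the receptor of epidermal growth factor, had 243 in the knockout and 81.6 in the control, 2.97-fold higher, and a dimmer probe set had 61.2 in the knockout and 40.8 in the control (log2 ratio 0.58). With the mean of all its probe sets, Egfr was under the floor in the control and had only a bound, a log2 ratio of at least 0.56, which does not reach the limit. Sox17, a transcription factor gene needed for Ihh expression in this epithelium, had 5185 in the knockout and 2802 in the control (log2 ratio 0.89). A dimmer Sox17 probe set, with 2873 in the knockout and 1369 in the control, was past the limit at a log2 ratio of 1.07. Gata2, which acts with the progesterone receptor, had 1628 in the knockout and 846 in the control (0.94). Pgr, the progesterone receptor gene itself, had 41.6 in the knockout and 54.5 in the control (-0.39); it is given although it falls outside the naming rule. Sox17 and Gata2 were thus higher by more than Ihh on the log2 scale, and Pgr was slightly lower. All probe sets of Sox17 and Gata2 have names that mark them as able to read several transcripts, and Ihh has only 1 probe set.

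Other epithelial genes linked to progesterone, whether or not it induces each of them in mouse, did not share 1 direction. Of 12 genes, 9 were measured, of which 3 were higher and 2 lower past the limit, against 7.37% and 9.92% of all measured genes. The median log2 ratio of the 9 was 0.67, and that of all measured genes was 0.05. Spink1, a trypsin inhibitor gene, had 155 in the knockout and 14.2 in the control, 10.9-fold higher. The sulfotransferase gene Sult1d1 was 4.08-fold higher and the clock gene Per1 3.65-fold higher. The brightest genes within the limit, Hdc, Acod1 and Msx1, had log2 ratios of 0.59, 0.67 and 0.83. Dimmer probe sets of Hdc and Msx1 had 0.85 and 1.39. Over the list, 6 ratios were above 0 and 3 below. Muc1, a cell surface mucin gene, was 4.22-fold lower, and Cyp26a1, which encodes a retinoic acid hydroxylase, was 2.41-fold lower, with 35.9 in the knockout and 86.3 in the control. Ihh, at a log2 ratio of 0.38, lay between these extremes.

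Genes that follow Ihh in the stroma, or signal back from it, were mostly dim. Of 12 genes, 7 were measured. Past the limit 1 was higher and 0 were lower, against 7.37% and 9.92% of all measured genes. The median log2 ratio of the 7 was 0.57, and that of all measured genes was 0.05. Fgf1, a fibroblast growth factor gene that the stromal factor HAND2 holds down in mouse uterus, had 1166 in the knockout and 211 in the control, 5.51-fold higher. Its dimmer probe set had 477 in the knockout and 96.95 in the control, 4.92-fold higher. Wnt4, which acts in decidualization, had 34.1 in the knockout and 50.8 in the control, and Fgf18, a further growth factor gene, had 65.3 in the knockout and 45.1 in the control. Hand2 was under the floor (1.43 in the knockout and 0.612 in the control), as was Bmp2 (6.58 in the knockout and 3.80 in the control). Fgf1 thus stood apart from the rest of this list in size, while Hand2 and Bmp2 were not measurable.

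Ptch1 and Nr2f2 are known mainly from the stroma in mouse uterus, so markers of that tissue were read beside the hedgehog genes. Of 16 stroma markers, 12 were measured. At the 2-fold limit 0 were higher and 2 were lower, against 7.37% and 9.92% of all measured genes. The median log2 ratio of the 12 was 0.22. The summed signal of the list was 3809 in the knockout and 3024 in the control, a ratio of 1.26. Dcn (decorin) had 1753 in the knockout and 1235 in the control, and Col3a1 (a collagen) had 721 in the knockout and 570.0 in the control. A dimmer Col3a1 probe set leaned the other way, with 32.2 in the knockout and 35.6 in the control (log2 ratio -0.14). Vim (vimentin) had 432 in the knockout and 299.9 in the control, and its dimmer probe sets had log2 ratios of 0.58 and 0.69. The highest marker ratio was that of Col1a2 at 0.73, and the lowest was that of Fbln1 at -2.30, with 44.5 in the knockout and 219 in the control. Dpt was 2.02-fold lower, with 26.3 in the knockout and 53.1 in the control. The main ratio of Nr2f2 lay just under that of Col1a2 and those of its dimmer probe sets above it, and those of Ptch1 and Gas1 lay above every measured stroma marker. Pdgfrb, Fap, Postn and Twist2 were under the floor on both arrays.

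The part of stromal RNA in the hedgehog values was not tested, and in bulk RNA more cells of a type and more RNA per cell cannot be told apart. Epithelial markers had a summed signal of 23372 in the knockout and 21504 in the control, a ratio of 1.09. Of 11 measured epithelial markers, 2 were higher past the limit and 0 were lower, against 7.37% and 9.92% of all measured genes. Ehf, an epithelial transcription factor gene, had 835 in the knockout and 355 in the control, 2.35-fold higher, and Cldn4, a claudin gene, had 776 in the knockout and 371 in the control, 2.09-fold higher. The lowest epithelial ratio was that of Elf3, a related factor, at -0.96 (432 in the knockout and 842 in the control). Leukocyte markers had a median log2 ratio of 0.69 over 7 measured genes, and 1 of them, C1qa, passed the limit upwards (67.4 in the knockout and 33.2 in the control). Of the 7 ratios, 6 were above 0. The lowest was that of Cd68 at -0.87 (44.4 in the knockout and 81.1 in the control). Lyz2 had 296 in the knockout and 154 in the control (log2 ratio 0.95). Csf1r had 144 in the knockout and 85.8 in the control (0.75), and its dimmer probe sets had 0.67 and 0.18. C1qb had 0.21, and its dimmer probe sets had 0.81 and 0.60. Cd3e, Cd79a, Itgam, Nkg7 and S100a8 were under the floor. Smooth muscle markers had 3 measured genes with a median of -0.31, and Myh11, Cnn1, Des, Actg2 and Lmod1 were under the floor. Endothelial markers had 4 measured genes with a median of 0.02, and Pecam1, Kdr, Tek, Emcn and Erg were under it. Stromal transcripts were thus present on both arrays, and epithelial markers were close in sum while single ones differed.

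**Figure D4:**
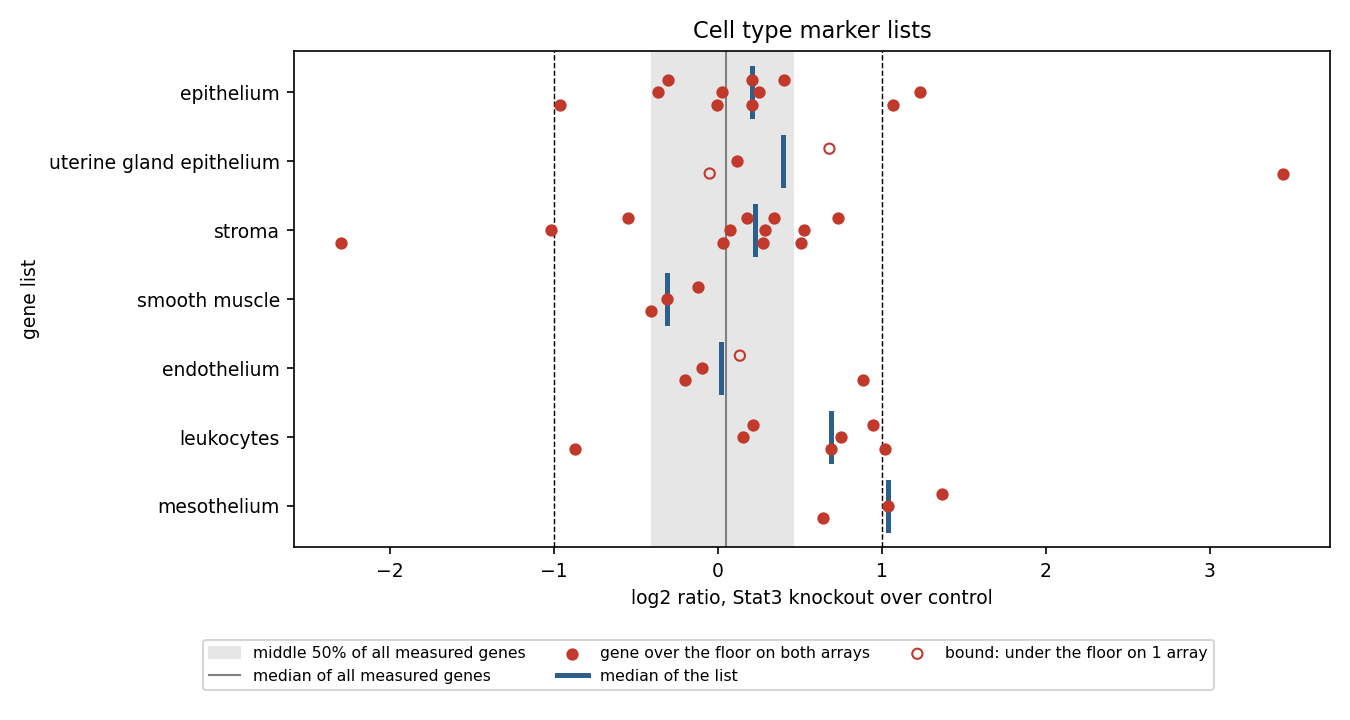
Log2 ratio of Stat3 knockout over control (x axis) for each measured gene of 7 cell type marker lists (y axis), drawn as in the plot of hedgehog-related lists; the red blood cell list had no measured gene. The stroma list has a median of 0.22 and its highest gene at 0.73, whereas the leukocyte list has a median of 0.69 and the 3 mesothelium markers have one of 1.04.

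With 2 arrays, likeness of pattern means only similar signals on both. The genes nearest to Ihh in log2 signal, among 7512 others over the floor on both arrays, were Dram1 (142 in the knockout and 109 in the control), Hip1r and Pcbp4, at distances of 0.0098, 0.014 and 0.020. Nearest to Nr2f2 were Dnmbp (277 in the knockout and 171 in the control), Rmi1 and Plin3, at 0.029, 0.030 and 0.036. A further count shows how common such neighbours are: 33 genes lay within 0.1 of Ihh and 15 within 0.1 of Nr2f2.

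**Figure D5:**
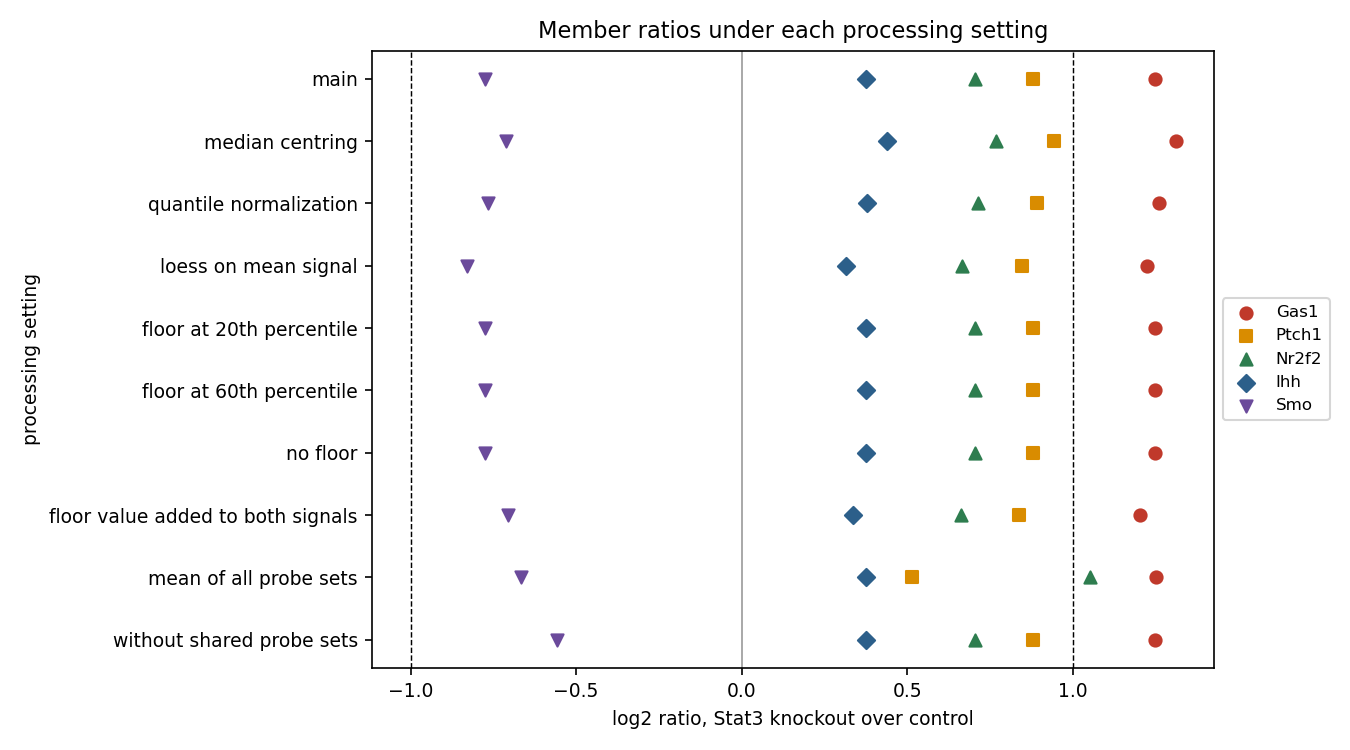
Log2 ratio of Stat3 knockout over control (x axis) of the 5 measured hedgehog genes under the reported setting (top) and 9 alternatives (y axis); dashed lines mark 2-fold. Gas1 lies past the upper limit in every row (1.21 to 1.31), Smo stays below 0, and Nr2f2 crosses the limit (1.05) only for the mean of all probe sets. In that row the Ptch1 point at 0.51 is a lower bound set by the floor, not a measured fall.

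The plot of member ratios under each setting shows Gas1 past 2-fold throughout and Ihh between 0.32 and 0.44. The direction of each of the 5 genes held under all 9 settings. Moving or dropping the floor could not change these ratios, because the main signals lie over every floor used. Nr2f2 depended on the choice of probe set: averaged over its 3 probe sets it was 2.07-fold higher.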

How the data were processed

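Total RNA from 2 pools of uterine epithelium, 1 Stat3 knockout and 1 control, was read on the Affymetrix Mouse Genome 430A 2.0 array. Per the labels' protocols, 100 ng of RNA was labelled per array. The authors deposited an intensity for each probe set on either array, made with MAS5 in Affymetrix Expression Console 1.1, the tools listed in the submitters' processing notes. The equal trimmed means of the deposited intensity values show that the arrays had been scaled to each other. Hybridisation batch and probe-level settings were not known. The extraction label speaks of human stromal cells and the collection label of days 4 and 5; the sample characteristics (mouse epithelium, day 4) were used.

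Groups were taken from the genotype label. Of 22690 probe sets, 64 controls were left out; the platform annotation, possibly outdated, gave 20380 of the rest 1 gene, 691 several and 1555 none. Current symbols came from a RefSeq table (GRCm38.p6) by gene ID, for 20351 of the 20380. The brightest probe set of a gene, by mean log2 signal, gave its value. Signals under the 40th percentile (14.0) were set to that floor before the ratio. A gene under it on both arrays has no ratio, and one under it on 1 array has a bound ("at least"). No pseudocount and no test was used. The ratio code was tested on simulated data.

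The genes and lists were chosen with earlier results of these data known. The rule for naming genes took all 9 hedgehog genes and Stat3 with every probe set. From each list it took up to 6 genes past 2-fold and up to 3 of the brightest others. It also took the 3 genes nearest to Ihh and to Nr2f2. Further genes were named outside this rule, among them Mki67, Cdh1, Elf3, Col1a2 and several under the floor. Some genes that the rule picked are not described, among them Errfi1, Foxm1, Wnt5a, Itch and Gpc4. Alternatives changed the scaling, the floor, the probe sets and the fold limit. Promoter windows came from a RefSeq table. Python 3.11.15, pandas 2.3.3 and statsmodels 0.14.6 were used.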

Additional observations from a re-analysis of the deposited data

How the results depend on the processing

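No paired analysis was possible because each group has 1 array. With 11 alternatives (3 scalings, 4 treatments of low signals, 2 uses of probe sets, 2 fold limits), the log2 ratios of Gas1 (1.21 to 1.31), Ihh (0.32 to 0.44) and Smo (-0.83 to -0.56) moved by less than the probe set SD of 0.31 under the 9 that do not concern the fold limit. Part of this was fixed in advance. Moving or dropping the floor could not change these ratios, because the signals lie over every floor used. Ihh, with 1 probe set, could not change with the use of probe sets either. With the mean of all probe sets, Nr2f2 had 1.05 and Ptch1 a bound of 0.51, set by its probe set under the floor, and 2 hedgehog genes were at least 2-fold higher. With no floor, 9 hedgehog genes had a ratio and 1 was at least 2-fold lower (Hhip, -2.05, from signals of 0.783 in the knockout and 3.24 in the control). At 1.5-fold, 3 hedgehog genes were higher and 1 lower, and at 3-fold 0 were higher. Over all genes, the counts were 1094 higher with the floor at the 20th percentile; 346 higher and 449 lower at the 60th; 1927 and 1774 with no floor; 1607 and 1541 at 1.5-fold; and 143 and 401 at 3-fold, which follow from the number of genes measured and the limit. The median of all genes stayed between -0.007 and 0.11 in log2 ratio. Signal over background limits the GLI genes and Hhip: at the 20th percentile floor Gli1 had -0.89 and Gli2 0.64, from signals under 10 on both arrays. The list medians kept their sign: 0.14 to 0.29 for the wider pathway, 0.18 to 0.30 for genes upstream of Ihh and 0.05 to 0.34 for stroma. Their counts past the limit changed: 0 to 4 genes were higher in the wider pathway and upstream lists, and 1 to 3 stroma markers were lower. With the mean of all probe sets the upstream list had 0 higher (Egfr a bound of 0.56) and 1 lower (Foxo1, -1.25), and with no floor the wider pathway had 1 lower (Cdon, -1.36, both signals under the floor).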

Other observations

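Mesothelium markers, of the lining outside the uterus, were higher in the knockout in all 3 genes measured, with a median log2 ratio of 1.04. The median of all measured genes was 0.05. Upk3b, a uroplakin gene, had 372 in the knockout and 145 in the control, 2.57-fold higher, and its dimmer probe set was 2.44-fold higher. Msln, which encodes mesothelin, had 71.2 in the knockout and 34.7 in the control, 2.05-fold higher. The third, Wt1, had 33.5 in the knockout and 21.5 in the control. Of 4 measured markers of uterine glands, 1 was higher past the limit and 0 were lower, against 7.37% and 9.92% of all measured genes. Summed signals over all 6 on the array were 223 in the knockout and 61.5 in the control. The gene past the limit was Spink1, also counted among the genes linked to progesterone, at 10.9-fold higher. Its 155 in the knockout made up most of the summed 223, and its 14.2 in the control was barely over the floor. Foxa2, a transcription factor gene of gland cells, had 23.9 in the knockout and 22.0 in the control. Cxcl15, a chemokine gene, was over the floor in the knockout only, at least 1.60-fold higher (22.5, against 6.47 in the control). Prss29, a serine protease gene, was at 9.63 in the knockout, under the floor, and 14.5 in the control.

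Igfbp4, an insulin-like growth factor binding protein gene of the list downstream of Ihh, showed disagreement between probe sets. Its brightest, 1437405_a_at, had 174 in the knockout and 226 in the control (log2 ratio -0.38), and 1437406_x_at had 141 in the knockout and 32.6 in the control (2.11). Names of both mark them as able to read several transcripts. Of the others over the floor, 1423756_s_at had -0.55, 1421992_a_at had -0.15 and 1423757_x_at had 0.31, so the ratio of 2.11 stood apart from the rest. The cause was not tested.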
